A study of Mus musculus with 3 samples.

Results

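Endothelial cells line the blood vessels of the brain. They were picked out of single-nucleus RNA sequencing of mouse hippocampus as nuclei in which at least 3 of 9 endothelial genes were detected: Flt1, Cldn5, Pecam1, Ly6c1, Mecom, Abcb1a, Slco1a4, Adgrl4 and Tek. A nucleus was barred if it held more than 1 unique molecule (UMI, a barcoded cDNA count) of Slc17a7, Gad1, Gad2 and Plk5 together, any UMI of Aqp4, Csf1r or Mog, or more than 1 UMI of Atp13a5, Pdgfrb and Abcc9 together. This rule kept 157 of 35322 nuclei, or 0.444% (95% exact binomial interval 0.378 to 0.520). The nuclei were thus chosen by the measured UMIs of these genes, and the levels of the 9 genes below are a description of the rule.

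There were 3 libraries with 1 library per group, each pooled from the hippocampi of both sides of 4 mice: an untreated control, doxorubicin, and doxorubicin plus ACY-1083. Doxorubicin is an anthracycline used in chemotherapy that poisons topoisomerase II, and ACY-1083 is an inhibitor of the tubulin deacetylase HDAC6. The comparisons ask how the hippocampus differs after this chemotherapy, and whether it differs again when HDAC6 is inhibited as well. The labels used here give no dose, time, age, sex or strain. Because mice were pooled and each group is 1 library, differences between libraries have no replicate check, no test was possible, and the intervals printed cover counting error only. Treatment and library cannot be told apart, and the deposited headers name another software version for the doxorubicin plus ACY-1083 library than for the other 2.

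The vessels of the brain differ from those of other organs: their endothelial cells are joined by tight junctions, hold few transport vesicles, and pass glucose, amino acids, iron and hormones through dedicated carriers while efflux pumps return many drugs to the blood. These barrier features depend on Wnt and beta-catenin signalling in the endothelium. Along the vessel tree the cells grade from arterial through capillary to venous expression. Vascular endothelial growth factor and angiopoietin act through receptors that are largely found in this cell type, and Notch signals also act in it.

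To show the regulatory sequence shared by some of these genes, their promoters were searched for CAGGAAG on both strands, a sequence of the class bound by ETS factors such as Erg and Fli1. Promoters were RefSeq windows of 300 bases, from 250 before to 50 after each transcription start (assembly GRCm38.p6). The letters were present in 4359 of 32851 windows in all, or 13.3%. Of 20 endothelial genes that the rule does not use, 11 had a window, and 8 of those held the letters (Cd34, Ctla2a, Cyyr1, Egfl7, Emcn, Erg, Itm2a and Robo4, in 10 of 16 windows). Eng, Kdr and Tie1 did not. Of the 9 rule genes, 8 had a window, and none of their 10 windows held the letters. A match is a description and not a bound site. The following 4 windows are shown because they span this range, from 2 copies to none, and capitals mark the letters searched or their reverse complement. Egfl7 has 3 windows, with 2, 1 and 0 copies, and only the window with 2 is shown. It lies on the plus strand at chr2:26580833-26581132, Emcn at chr3:137340828-137341127, Robo4 at chr9:37401722-37402021 and Cldn5 at chr16:18776597-18776896.
Egfl7: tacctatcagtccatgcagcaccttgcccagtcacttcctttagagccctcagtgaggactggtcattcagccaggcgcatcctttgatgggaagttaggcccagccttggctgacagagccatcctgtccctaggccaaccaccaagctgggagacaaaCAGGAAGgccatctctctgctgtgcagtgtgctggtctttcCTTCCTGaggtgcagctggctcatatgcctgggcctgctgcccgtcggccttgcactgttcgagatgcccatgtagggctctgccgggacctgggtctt
Emcn: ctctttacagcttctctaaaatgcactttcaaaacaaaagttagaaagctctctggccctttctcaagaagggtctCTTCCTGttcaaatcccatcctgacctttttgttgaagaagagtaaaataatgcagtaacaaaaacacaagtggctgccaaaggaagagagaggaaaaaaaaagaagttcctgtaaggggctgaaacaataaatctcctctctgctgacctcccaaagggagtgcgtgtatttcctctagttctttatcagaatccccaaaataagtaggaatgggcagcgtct
Robo4: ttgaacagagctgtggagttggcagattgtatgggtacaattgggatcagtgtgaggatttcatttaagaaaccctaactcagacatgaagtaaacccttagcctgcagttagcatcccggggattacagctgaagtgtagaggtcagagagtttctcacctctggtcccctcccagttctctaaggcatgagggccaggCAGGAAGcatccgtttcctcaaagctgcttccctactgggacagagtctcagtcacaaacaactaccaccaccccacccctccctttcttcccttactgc
Cldn5: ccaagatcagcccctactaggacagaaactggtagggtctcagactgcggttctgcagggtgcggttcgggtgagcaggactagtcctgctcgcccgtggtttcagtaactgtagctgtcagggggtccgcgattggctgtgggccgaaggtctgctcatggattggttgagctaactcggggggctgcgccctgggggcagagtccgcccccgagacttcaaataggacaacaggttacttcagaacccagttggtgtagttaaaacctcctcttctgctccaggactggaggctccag
Egfl7 is a secreted protein of the vessel wall, Emcn (endomucin) a capillary and venous sialoglycoprotein, Robo4 an endothelial guidance receptor, and Cldn5 the main claudin of brain tight junctions. Their measured levels are given with their groups below.

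The control library gave 32 endothelial nuclei, the doxorubicin library 56 and the doxorubicin plus ACY-1083 library 69. Their shares of all nuclei were 0.293% (0.201 to 0.414) of 10909, 0.458% (0.346 to 0.595) of 12221 and 0.566% (0.441 to 0.716) of 12192. The share was thus lowest in the control library. The share in doxorubicin was 1.56 times that in control (0.994 to 2.49), that in doxorubicin plus ACY-1083 was 1.24 times that in doxorubicin (0.856 to 1.79), and that in doxorubicin plus ACY-1083 was 1.93 times that in control (1.25 to 3.03). The doxorubicin plus ACY-1083 library was also the deepest. Its median nucleus held 3912.5 UMIs against 1487 in control and 1485 in doxorubicin, and detection of 3 genes is easier in a deeper nucleus. The part of depth in the shares was not tested. When nuclei were first thinned to 1000 UMIs, those with fewer were left out. The rule then found 12 of 7958, 18 of 8869 and 37 of 11104 nuclei, or 0.151%, 0.203% and 0.333%, in the same order of libraries. Of the endothelial nuclei, 12 of 32, 20 of 56 and 41 of 69 held at least 1000 UMIs, so this step does not remove depth from the shares.

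**Figure D1:**
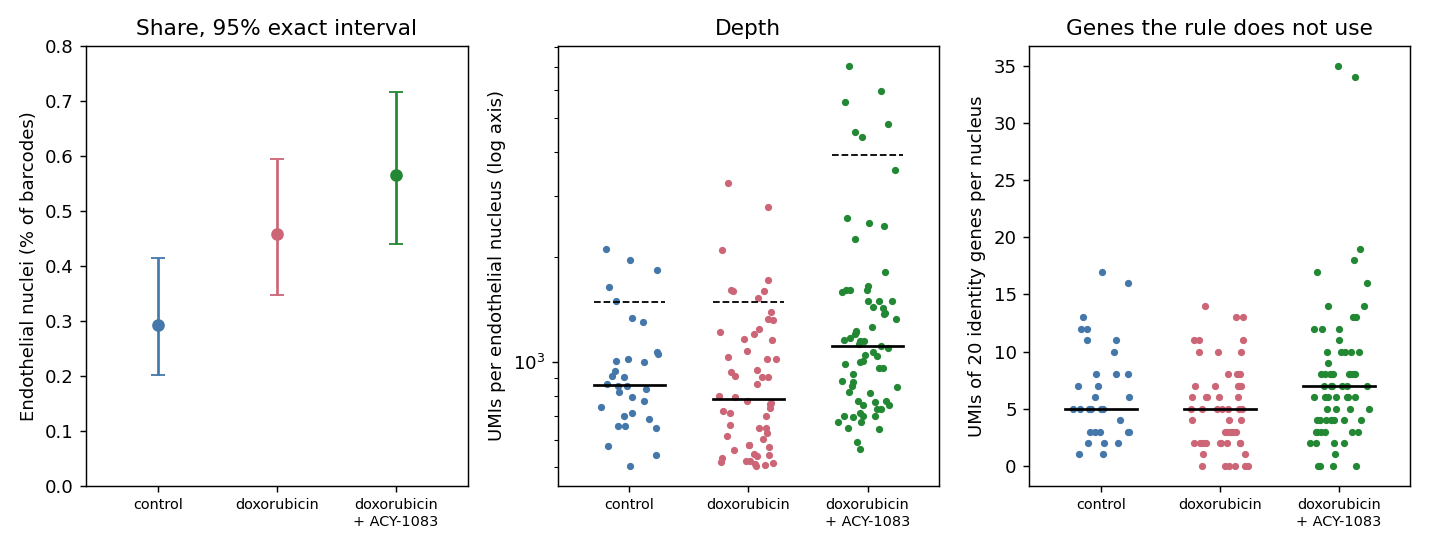
Endothelial nuclei by library. The panels plot the share of all nuclei in percent with 95% binomial intervals, the UMIs of each endothelial nucleus on a log axis (solid line for their median, dashed line for the median of the library), and the UMIs of 20 endothelial genes outside the rule in each nucleus; shares run from 0.293% in control to 0.566% in doxorubicin plus ACY-1083, and the endothelial medians lie under the library medians.

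Endothelial nuclei were shallow. Their UMIs ranged from 505 to 2103 in control (median 861.5), from 505 to 3256 in doxorubicin (median 783.5) and from 563 to 7052 in doxorubicin plus ACY-1083 (median 1111). Summed over nuclei these are 31817, 54484 and 106645 UMIs, so that 20 UMIs of a gene correspond to 629, 367 and 188 CPM (a gene's UMIs scaled to the endothelial sum of its library, where 10000 CPM is 1% of that sum). A gene at 0 UMIs may lie as high as 94.3, 55.1 and 28.1 CPM, the level of 3 UMIs. Malat1 took 16.3%, 15.4% and 7.76% of endothelial UMIs, and mitochondrial genes 0.390%, 0.281% and 0.0675%, against 0.0408%, 0.0514% and 0.0140% in all other nuclei. None of the endothelial nuclei shared a barcode with another library, although 42, 29 and 46 barcodes were shared between pairs of libraries.

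The rule's edge was sharp in control and softer in the other 2 libraries. Nuclei with exactly 3 of the 9 genes numbered 6, 18 and 11, and the summed level of 20 endothelial genes outside the rule was 6291, 3392 and 1713 CPM in them. Unbarred nuclei with 2 of the 9 genes numbered 17, 16 and 81, with 43.5, 948 and 152 CPM of the same 20 genes. Those with 4 or more held 6624, 6277 and 5816 CPM (26, 38 and 58 nuclei). A further 7, 15 and 28 nuclei had 3 or more of the genes but were barred by markers of other cells. When each library was clustered without the 9 rule genes and the exclusion genes, 24 of 32, 42 of 56 and 60 of 69 endothelial nuclei fell into a single cluster, which held 533, 828 and 140 nuclei. In each library that cluster therefore consisted mostly of nuclei outside the rule.

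The 9 genes that define the nuclei have these levels. Flt1, the decoy receptor for vascular endothelial growth factor (chr5:147561604-147726011, minus strand, GRCm38), had 90, 116 and 289 UMIs, or 2829, 2129 and 2710 CPM in control, doxorubicin and doxorubicin plus ACY-1083. Cldn5 (chr16:18776847-18778262, plus strand) had 37, 82 and 39 UMIs, or 1163, 1505 and 366 CPM. Cldn5 has no intron in the annotation and was lowest in the doxorubicin plus ACY-1083 library, which in general held less of intron-poor genes. The organic anion carrier Slco1a4 was close to even, with 53, 94 and 181 UMIs, or 1666, 1725 and 1697 CPM. The efflux pump Abcb1a (P-glycoprotein) had 629, 440 and 600 CPM, and Pecam1, an adhesion molecule of endothelial contacts, had 251, 257 and 253 CPM. The transcription factor Mecom had 723, 753 and 1828 CPM, and Adgrl4, an adhesion receptor, 849, 312 and 1144 CPM. Ly6c1, a surface protein, had 1257, 1083 and 488 CPM, and Tek, the angiopoietin receptor, 5, 7 and 31 UMIs. Reads of Ly6c1 and Abcb1a may be split with the near copies Ly6c2 and Abcb1b. A nucleus held a median of 5, 4 and 5 of the 9 genes.

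Endothelial identity was checked on 20 genes that the rule does not use. Their summed level was 6569 CPM in control (5708 to 7522), 5231 in doxorubicin (4641 to 5875) and 5007 in doxorubicin plus ACY-1083 (4592 to 5451), against 73.6, 79.1 and 55.1 CPM in all other nuclei. The endothelial level was 89.2, 66.1 and 90.9 times that of the other nuclei. It was also above the pericyte-like nuclei (117, 157 and 321 CPM) and the fibroblast-like nuclei (315, 102 and 321 CPM), the other vessel-associated cells of these libraries. Of the 20 genes, 19, 20 and 20 were at least 2-fold above other nuclei, counted without a UMI minimum. Among all genes with at least 20 UMIs, 73.6%, 59.9% and 35.2% reached that fold, so the 2 counts differ in threshold. The rule shaped this contrast and nothing is read from it. At least 1 UMI of the 20 genes was present in 32 of 32, 50 of 56 and 65 of 69 endothelial nuclei. In other nuclei of like depth (medians of 877, 852 and 1141 UMIs) the same held for 6.30%, 6.10% and 10.8%. Ptprb had 35, 40 and 109 UMIs, Egfl7 39, 64 and 70, Itm2a 22, 18 and 23 and Ly6a 13, 29 and 20. Counts were lower for Cdh5, the cadherin of endothelial contacts, had 6, 9 and 18 UMIs, Emcn 6, 11 and 26, Robo4 5, 2 and 3, the ETS factor Erg 0, 2 and 17, and Kdr, the main signalling receptor for vascular endothelial growth factor, 5, 4 and 11. A nucleus held a median of 5, 5 and 7 UMIs of the 20 genes, with up to 17, 14 and 35.

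**Figure D2:**
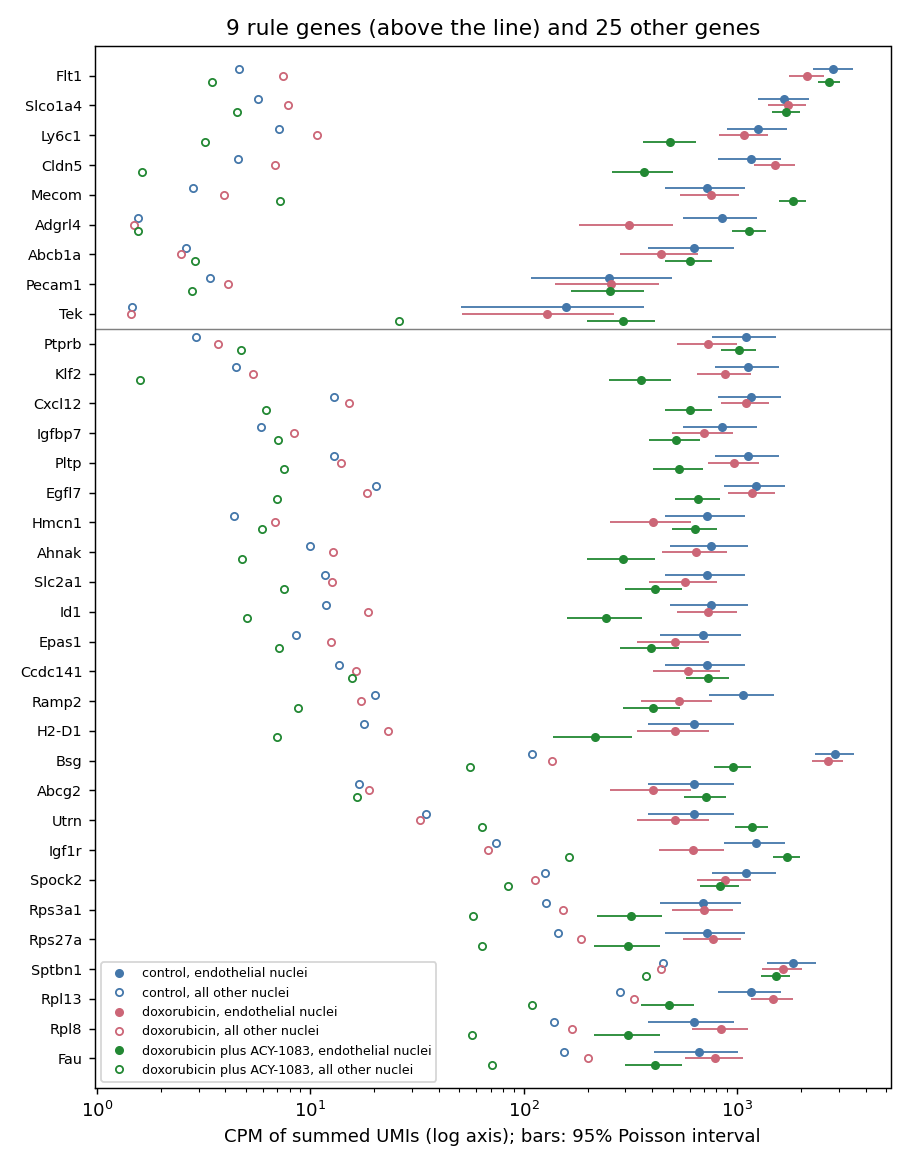
Levels of the 9 rule genes and of the 25 other genes that stood highest above other nuclei, in CPM on a log axis. Filled points are endothelial nuclei and open points all other nuclei of the same library; Outside the rule genes, Ptprb and Klf2 rank first by the gap and the 5 ribosomal genes are among the last 6.

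Outside the rule, 25 genes were ranked by how far they stood above other nuclei in all 3 libraries (lowest bound of the 3 ratios, among 87 genes with at least 20 UMIs in each). Ptprb, the endothelial receptor phosphatase that acts on Tek (chr10:116275523-116389535, plus strand), had 1100, 734 and 1022 CPM and stood 376, 199 and 216 times above other nuclei. Klf2, a flow-induced transcription factor (chr8:72319033-72321656, plus strand), had 1131, 881 and 356 CPM and stood 252, 163 and 223 times above them. Cxcl12, a chemokine, had 1163, 1101 and 600 CPM with ratios of 90.1, 72.5 and 97.2. Egfl7 (chr2:26580014-26593120, plus strand), whose promoter is printed above, had 1226, 1175 and 656 CPM with ratios of 60.5, 63.7 and 94.1. Igfbp7, a secreted binding protein, and Pltp, a lipid transfer protein, had ratios from 72.7 to 145 and from 70.1 to 87.3. In each of Klf2, Cxcl12, Egfl7, Igfbp7 and Pltp the level in CPM was lowest in the doxorubicin plus ACY-1083 library. The carriers and pumps among the 25 were further down. Slc2a1, the glucose carrier of the barrier (chr4:119108711-119137983, plus strand), had 723, 569 and 413 CPM with ratios of 61.5, 44.8 and 55.1. Abcg2, a drug efflux pump, had 629, 404 and 713 CPM with ratios of 37.3, 21.3 and 43.2. Bsg (basigin), the chaperone of monocarboxylate carriers, had 2892, 2661 and 956 CPM with ratios of 26.3, 19.5 and 17.1. The ranking also held Epas1, a hypoxia-inducible factor, Ramp2, a partner of the adrenomedullin receptor, Igf1r, Id1, H2-D1, Hmcn1, Ahnak, Ccdc141, Utrn, Spock2 and Sptbn1, and 5 ribosomal genes (Rps3a1, Rps27a, Rpl13, Rpl8 and Fau) with ratios from 3.95 to 5.81.

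Doxorubicin against control was compared over 250 genes with at least 20 UMIs in the higher library. Endothelial nuclei of the doxorubicin library held more of Nisch, Neat1, Agrn and Cald1 and less of Mt1, Pglyrp1, Igf1r and Hsp90ab1. Barrier transporters and growth factor receptors were lower as groups. So were identity genes (0.796), transcription factors (0.754), Wnt genes (0.603) and capillary genes (0.796), so the lower sums were not particular to barrier genes. Activation and basement membrane genes were at 1.13 and 1.03, and junction genes at 0.924, with intervals that include 1. Of the 250 genes, 12% were at least 2-fold higher and 4.0% at least 2-fold lower, and 177 were above a ratio of 1. The median log2 ratio was 0.27, against 0.12 for the same genes in all other nuclei. The UMI minimum falls at a higher level in the shallower control library, and with the same CPM minimum in both libraries the median was -0.051. Markers of other cells moved between the same libraries. The 8 neuron markers summed to 3929 CPM in control and 7856 CPM in doxorubicin, a ratio of 2.0 (1.63 to 2.46), with Meg3 alone at 79 and 330 UMIs, and the 9 choroid plexus markers summed to 3049 and 8168 CPM. Their part in the gene differences was not tested. In doxorubicin 1 nucleus held 150 of the 428 neuron UMIs, and without it the ratio was 1.38. With the nuclei in the main cluster alone it was 1.22.

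Among the genes higher in doxorubicin, Nisch, a scaffold protein that binds integrins (chr14:31170930-31216946, minus strand), had 6 UMIs in control, 33 in doxorubicin and 27 in doxorubicin plus ACY-1083, or 189, 606 and 253 CPM. Its doxorubicin to control ratio was 3.21 (1.33 to 9.38), against 1.03 in other nuclei. Agrn, the heparan sulfate proteoglycan of the vessel basement membrane (chr4:156165290-156197488, minus strand), had 5, 26 and 27 UMIs, or 157, 477 and 253 CPM. Its ratio was 3.04 (1.15 to 10.1), against 0.921 in other nuclei, so that both treated libraries lay above control. Neat1, a nuclear long RNA of paraspeckles (chr19:5824708-5845478, minus strand), had 16 UMIs in control and 63 in doxorubicin, a ratio of 2.30 (1.31 to 4.27), and was also higher in other nuclei by 1.33 times. Cald1, an actin-binding protein abundant in contractile cells, had 6 and 27 UMIs, a ratio of 2.63 (1.06 to 7.78). The remaining genes named here were Aldoa (ENSMUSG00000030695, a symbol with more than 1 entry in the files), Slc25a4, Macf1, Ddx17 and Tmsb4x, with ratios from 1.39 to 2.19. The intervals of Slc25a4, Macf1, Ddx17 and Tmsb4x reached below 1, and Tmsb4x was as high in other nuclei (1.5). Slc25a4 stood below 1 when nuclei were thinned to 1000 UMIs (log2 ratio -0.22 in place of 1.07).

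Among the genes lower in doxorubicin, Mt1, a zinc-binding metallothionein (chr8:94179082-94180327, plus strand), had 33 UMIs in control, 24 in doxorubicin and 37 in doxorubicin plus ACY-1083, or 1037, 440 and 347 CPM. Its doxorubicin to control ratio was 0.425 (0.240 to 0.741), against 1.22 in other nuclei. Its neighbour Mt2 had 10, 1 and 7 UMIs. Both metallothioneins were thus lowest in UMIs in the doxorubicin library, although it had more endothelial nuclei than control. In CPM, which allow for the unlike sums, Mt1 was lowest in doxorubicin plus ACY-1083. Pglyrp1, a peptidoglycan recognition protein (chr7:18871331-18890459, plus strand), had 29, 21 and 17 UMIs, or 911, 385 and 159 CPM, with a ratio of 0.423 (0.229 to 0.768) against 1.14 in other nuclei. Igf1r, the receptor for insulin-like growth factor (chr7:67952827-68233668, plus strand), had 39 UMIs in control and 34 in doxorubicin, or 1226 and 624 CPM, with a ratio of 0.509 (0.312 to 0.828). Itm2a, a membrane protein of brain endothelium, had 22 and 18 UMIs, a ratio of 0.478 (0.242 to 0.933), but a log2 ratio of 0.49 after thinning to 1000 UMIs. The chaperone Hsp90ab1 had a ratio of 0.574 (0.388 to 0.847) and the ferritin chain Fth1 0.694 (0.498 to 0.970). Adgrl4 (27 and 17 UMIs, ratio 0.368) and Flt1 (90 and 116 UMIs, ratio 0.753) are rule genes and are given as a description. Hnrnpa2b1 and Hmcn1 completed the set with ratios of 0.679 and 0.559 and intervals that reached above 1.

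**Figure D3:**
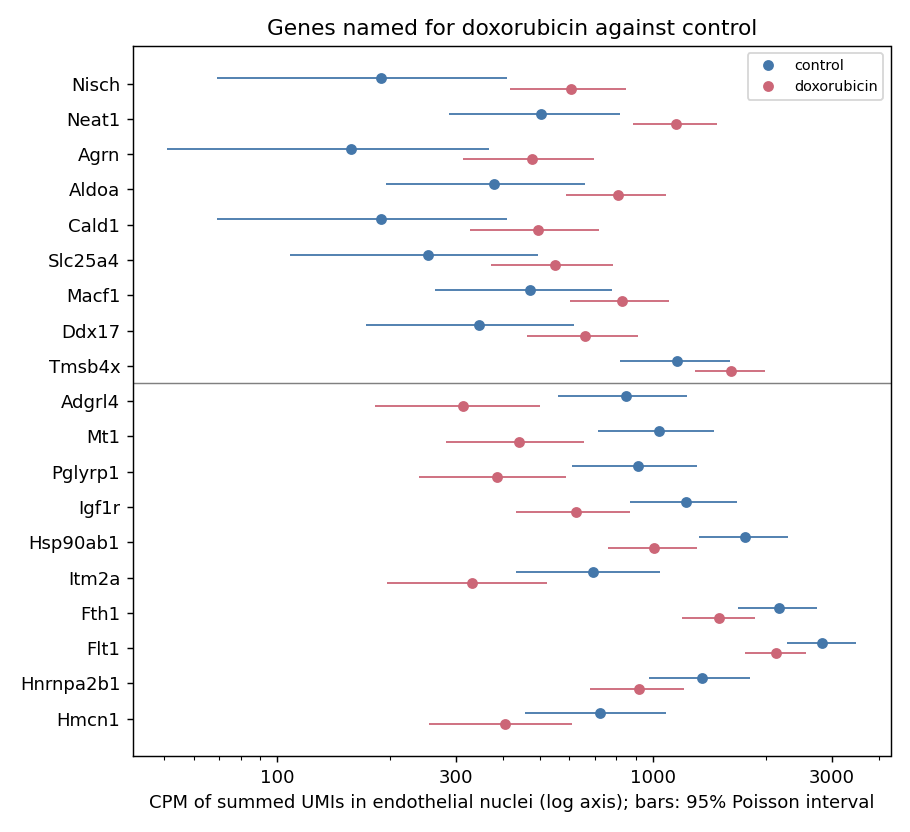
Levels of 19 genes named for doxorubicin against control in endothelial nuclei, as CPM on a log axis with 95% Poisson intervals, in the control and the doxorubicin library. The 9 genes above the line are higher in doxorubicin (Nisch at 189 and 606 CPM) and the 10 below it are lower (Mt1 at 1037 and 440 CPM), and many of the intervals overlap.

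By function, receptors came first. The 24 growth factor and guidance receptors (with Pdgfb, a ligand) summed to 6632, 4497 and 5776 CPM in the 3 libraries. Their doxorubicin to control ratio was 0.678 (0.562 to 0.819), against 0.948 in other nuclei. Of the 4 with enough counts, Ramp2, Igf1r and Ptprb were lower and Pdgfb, the signal that recruits pericytes, was higher, with a median log2 ratio of -0.78. Ramp2 had 34, 29 and 43 UMIs, or 1069, 532 and 403 CPM, and was the 1 past 2-fold, where 4.0% of all genes were as far below. The 29 transporters summed to 8235, 6002 and 6976 CPM, a ratio of 0.729 (0.618 to 0.861) against 0.994 in other nuclei. Of 6 with enough counts, 4 were lower, among them Tfrc, Abcg2 and Slc2a1, and 2 were higher: the taurine carrier Slc6a6 (21, 51 and 88 UMIs, or 660, 936 and 825 CPM) and the thyroid hormone carrier Slco1c1 (17, 39 and 84 UMIs). Astrocyte markers were at 4149, 2092 and 1003 CPM in the same nuclei. The part of astrocytes in the transporter sum was not tested. With at least 4 rule genes per nucleus the transporter ratio was 0.885. Within the endothelial nuclei of the main cluster alone, the ratios of growth factor receptors, transporters and transcription factors were 0.870, 0.891 and 0.991.

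Transcription factors and Wnt genes followed the same direction. The 28 endothelial transcription factors summed to 6789, 5121 and 6095 CPM, a doxorubicin to control ratio of 0.754 (0.629 to 0.905). Of 4 with enough counts, Tcf4, Epas1 and Klf2 were lower and Mef2c higher, with none past 2-fold. The 17 Wnt pathway genes summed to 2954, 1780 and 2007 CPM, a ratio of 0.603 (0.449 to 0.809) against 0.95 in other nuclei, but no member reached 20 UMIs in either library. Apcdd1, a Wnt antagonist and target, had 16, 8 and 15 UMIs, or 503, 147 and 141 CPM. Lef1, the transcription factor of the pathway, had 7, 17 and 66 UMIs, or 220, 312 and 619 CPM, and its receptor Fzd6 7, 7 and 11 UMIs. The sum was therefore lower while Lef1 was not. The 20 identity genes had a doxorubicin to control ratio of 0.796 (0.664 to 0.957), which was 0.948 with at least 4 rule genes per nucleus. The 17 junction genes were close to even, with 2106 and 1946 CPM and a ratio of 0.924 (0.674 to 1.27). Esam, an adhesion molecule of tight junctions, had 1, 17 and 13 UMIs, the least even of them.

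Activation and stress genes gave little. The 21 activation genes summed to 2672 CPM in control and 3010 in doxorubicin, a ratio of 1.13 (0.862 to 1.48). The adhesion molecules of inflamed endothelium were near the detection limit: Icam1 had 0, 0 and 3 UMIs, Vcam1 3, 5 and 14, and Sele and Selp none in any library. Of the 4 activation genes with enough counts, the class I genes H2-K1 (8 and 23 UMIs) and H2-D1 (20 and 28 UMIs) went opposite ways, and Ly6e and Pdgfb were higher. The 20 interferon genes had a ratio of 1.01 (0.776 to 1.31). The 20 p53 target genes, which answer DNA damage, summed to 1100, 752 and 769 CPM, a ratio of 0.684 (0.425 to 1.11), with Cdkn1a at 0, 1 and 2 UMIs. Top2a, the proliferative target of doxorubicin, had 0 UMIs in each library, and Top2b 3, 0 and 12. Hdac6, the target of ACY-1083 (chrX:7930120-7947889, minus strand), had 0, 4 and 0 UMIs, so that no difference was detectable at this depth. The 13 glucocorticoid targets had a ratio of 0.576 (0.409 to 0.811), most of it Mt1 and Mt2, and the 20 antioxidant genes, which hold the same genes, 0.707 (0.548 to 0.914). The 18 basement membrane genes had a ratio of 1.03 and the 18 immediate early genes 0.857. Nuclear genes of oxidative phosphorylation had 1.17, below their 1.26 in other nuclei, and ribosomal proteins 1.07, below 1.21. Mitochondrially encoded genes had 0.721 (0.565 to 0.921), against 1.26 in other nuclei. The 13 caveolar and vasoactive genes had a ratio of 0.401, but 74.1% of the control UMIs of Ptgds, the largest of them, came from 1 nucleus.

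The targets of both agents were sparse in these nuclei. The 13 genes of tubulin deacetylation and acetylation, Hdac6 among them, summed to 880, 771 and 956 CPM, a doxorubicin to control ratio of 0.876 (0.530 to 1.47). Sirt2, the other tubulin deacetylase, had 5, 7 and 11 UMIs, and the acetyltransferase Atat1 0, 2 and 4. The 23 tubulin genes summed to 2420, 2184 and 1294 CPM, and their ratio to doxorubicin in the third library, relative to other nuclei, was 1.15 (0.895 to 1.48). The 16 genes of topoisomerases and repair of their adducts summed to 629, 642 and 797 CPM, and Top1 had 7, 15 and 25 UMIs. The intervals of both ratios include 1.

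**Figure D4:**
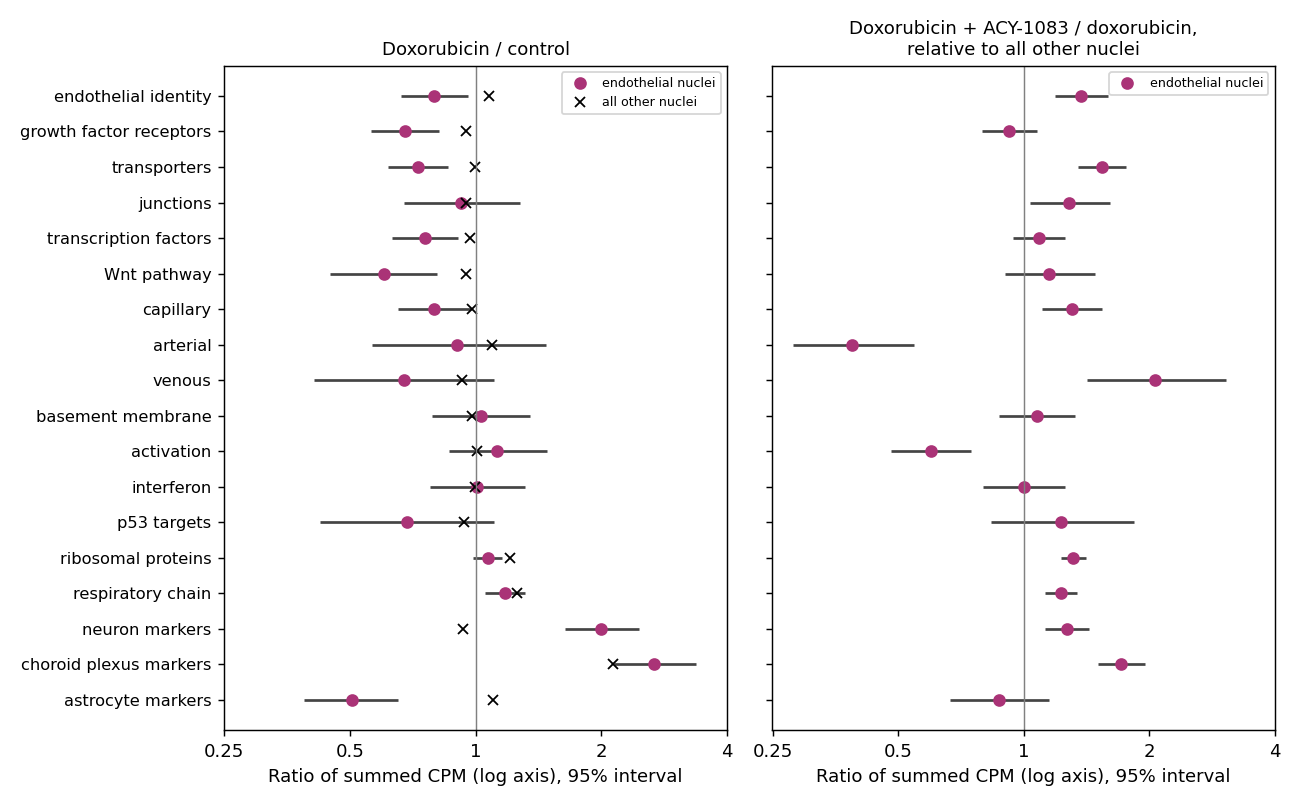
Summed levels of gene groups without the rule genes in endothelial nuclei, as ratios on a log axis with 95% counting intervals. The first panel is doxorubicin against control (crosses are all other nuclei). The second is doxorubicin plus ACY-1083 against doxorubicin, relative to all other nuclei. Receptors, transporters and Wnt genes are below 1 in the first panel, at 0.678, 0.729 and 0.603. Transporters are above 1 in the second, at 1.54, where the ratio without the division is 1.16.

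The doxorubicin plus ACY-1083 library differed from the others in a way that all its nuclei shared: across genes, its log2 ratio to doxorubicin in endothelial nuclei went with the log of intron length (Spearman 0.74, a description across genes, which are not replicates). Its ratios were therefore divided by the same ratio in all other nuclei, after which the correlation was -0.14. A relative ratio above 1 means that a gene stood higher in endothelial nuclei than its difference in other nuclei would give. Against doxorubicin, 885 genes could be compared this way, with a median log2 of 0.33; 23.6% were at least 2-fold higher and 4.75% at least 2-fold lower (51.5% and 12.3% of 932 genes without the division). The comparisons with doxorubicin and with control share the doxorubicin plus ACY-1083 library.

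Rundc3b stood apart. It encodes a protein with a RUN domain (chr5:8490334-8622952, minus strand) and had 0 UMIs in control, 0 in doxorubicin and 239 in doxorubicin plus ACY-1083, or 2241 CPM (1966 to 2544). It was present in 60 of 69 endothelial nuclei of that library (87.0%) and in 4.73% of other nuclei of like depth, whose level was 44.1 CPM; pericyte-like nuclei had 24.7 CPM. Against the level of 3 UMIs in the library at 0, it was at least 40.7-fold higher than in doxorubicin and at least 23.8-fold higher than in control. The exact intervals of the plain ratios start lower, at 32.8 and 19.2. Divided by the ratio in other nuclei, these intervals start at 10.3 and 6.51. Other nuclei had 32.8, 30.1 and 96.5 CPM. RefSeq places its body over part of Abcb1a, by 55994 bases on the opposite strand, while GENCODE shows no overlap; reads of the 2 genes may therefore not be separated, since the sources used here do not say whether counting used strand. Abcb1a itself had 64 UMIs in the same nuclei.

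Other genes higher relative to doxorubicin were of mixed function. Slc39a10, a zinc importer (chr1:46807544-46892852, minus strand), had 17, 6 and 48 UMIs, or 534, 110 and 450 CPM, a relative ratio of 6.89 (2.95 to 19.7) and 4.09 without the division. Its low point was thus the doxorubicin library, with control and doxorubicin plus ACY-1083 close together. Gpcpd1, a glycerophosphocholine phosphodiesterase (chr2:132529082-132587729, minus strand), had 13 UMIs in doxorubicin and 114 in doxorubicin plus ACY-1083, a relative ratio of 3.55 (1.99 to 6.87). Bex2 had 8 and 28 UMIs with a relative ratio of 4.89 (2.17 to 12.4), Clec2d 22 and 63 UMIs with 3.09 (1.87 to 5.27), and Pfdn5 5 and 20 UMIs with 5.12 (1.86 to 17.4). Without the division these 3 were at 1.79, 1.46 and 2.04, so that most of their relative excess lay in a lower level in other nuclei. Flt1, a rule gene, had a relative ratio of 2.73 and a plain ratio of 1.27.

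The genes lower relative to doxorubicin were of 2 kinds. Rapgef4, an exchange factor that answers cyclic AMP, had 28 and 50 UMIs and hardly differed in endothelial nuclei (0.912), but was 3.74 times higher in other nuclei, a relative ratio of 0.244 (0.151 to 0.403). Pakap (ENSMUSG00000038729, likewise a symbol with more than 1 entry; 0.282), Dlc1 (0.290) and Sgms1 (0.573) were likewise low by comparison with other nuclei and at or above a plain ratio of 1. The second kind was lower in endothelial nuclei as such. Ptn, the growth factor pleiotrophin (chr6:36714929-36810220, minus strand), had 41, 53 and 32 UMIs, or 1289, 973 and 300 CPM, and a relative ratio to doxorubicin of 0.527 (0.329 to 0.833). Cald1 had 27 and 12 UMIs (0.423, 0.195 to 0.863), Fermt2, an activator of integrins, 22 and 12 UMIs (0.393, 0.177 to 0.830), and Arpc2, a subunit of the actin nucleator, 20 and 16 UMIs (0.396, 0.192 to 0.805). Pericyte markers moved with these: their sum was 1226, 1358 and 384 CPM, with Vtn at 3, 22 and 5 UMIs, and smooth muscle markers were at 534, 184 and 18.8 CPM (1 nucleus held 11 of the 17 UMIs in control and 1 held 6 of 10 in doxorubicin). The part of such cells in the lower values was not tested.

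Against control, 727 genes were compared relative to other nuclei, with a median log2 of 0.38, and 38.7% were at least 2-fold higher and 6.33% at least 2-fold lower (61.4% and 6.36% of 770 genes without the division). Rundc3b again led, followed by Ubn2 (0 and 34 UMIs), Bex2, Tacc1, Pnisr, Agrn, St3gal6 and Camk2d. Ubn2 was at least 3.38-fold higher in CPM against the level of 3 UMIs, and its exact interval starts at 2.6. Agrn had a relative ratio of 4.70 (1.79 to 15.6) but a plain ratio of 1.61. Pnisr, with 13 and 55 UMIs, had 3.64 (1.96 to 7.27), and St3gal6, a sialyltransferase, 3 and 45 UMIs and 5.49 (1.76 to 27.6). Bex2, Tacc1 and Camk2d had 2, 1 and 1 UMIs in control, with relative ratios of 10.1 (2.54 to 87.2), 12.5 (2.02 to 513) and 9.78 (1.63 to 399). Lower were Ptn (0.349, 0.213 to 0.568), Pglyrp1 (0.405, 0.209 to 0.763), Igfbp7 (0.501, 0.311 to 0.827), Bsg (0.652, 0.487 to 0.873), Apod (0.361), Cpe (0.465), Rapgef4 (0.344) and Zfand3 (0.192). Pglyrp1 was thus low in both treated libraries. Cpe turned above 1 after thinning to 1000 UMIs (log2 0.87).

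As groups, transporters had a relative ratio of 1.54 to doxorubicin (1.35 to 1.76) and 1.13 to control (0.979 to 1.30). Without the division these were 1.16 (1.02 to 1.33) and 0.847 (0.735 to 0.979), with other nuclei at 0.755 and 0.751. Relative to doxorubicin, 9 of 11 transporters with enough counts were above 1 and 4 past 2-fold (23.6% of all genes were). Their median log2 was 0.50 beside 0.33 over all genes. Identity genes had a relative ratio of 1.37 (1.19 to 1.59) to doxorubicin and 1.02 (0.866 to 1.20) to control. Without the division these were 0.957 (0.828 to 1.11) and 0.762 (0.648 to 0.899), with other nuclei at 0.696 and 0.748. Junction genes had a relative ratio of 1.29 (1.04 to 1.61) to doxorubicin. Of them, 7 of 7 measured were above 1 (612 of 885 genes in all were) and 4 past 2-fold. Cldn5, a rule gene that was lower in CPM than in doxorubicin, is not among them. Their median log2, with 0.5 counts added, was 0.71. Among them Tjp1, the scaffold ZO-1, had 10, 10 and 128 UMIs and Magi3 3, 1 and 26. Relative to other nuclei, Tjp1 was at 1.27 to doxorubicin and 0.780 to control and Magi3 at 5.34 and 1.12, while without the division Tjp1 was at 6.54 and 3.82 and Magi3 at 13.3 and 2.59. Against control the summed junction genes had a relative ratio of 1.26 (0.970 to 1.65). There 6 junction genes were measured, of which 3 had a log2 above 0 and 3 below. The former were all past 2-fold, where 38.7% of all 727 genes were 2-fold higher. Growth factor receptors had 0.923 (0.795 to 1.07) to doxorubicin and 0.661 (0.564 to 0.776) to control, Wnt genes 1.15 (0.903 to 1.48) and 0.731 (0.571 to 0.942), and transcription factors 1.09 (0.942 to 1.25) and 0.846 (0.724 to 0.991). The intervals of all 3 groups to doxorubicin include 1, and those to control do not. Activation genes were lower, with 0.598 (0.480 to 0.746) to doxorubicin and 0.668 (0.512 to 0.878) to control, though short-intron members alone gave 1.06 and 1.74. Antioxidant genes had 1.5 (1.19 to 1.88) to doxorubicin relative to other nuclei, but 0.663 (0.528 to 0.834) without the division, and 0.901 (0.708 to 1.15) to control. Interferon genes had 1.0 (0.797 to 1.25). Ribosomal proteins, at 15069 CPM against 31477 in doxorubicin, had a relative ratio of 1.31.

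Arterial, capillary and venous markers were each found in endothelial nuclei of every library. At least 1 UMI of 12 capillary genes was present in 26 of 32, 49 of 56 and 64 of 69 nuclei (81.25%, 87.5% and 92.8%), against 42.3%, 40.8% and 36.9% of other nuclei of like depth. A UMI of 15 venous genes was present in 12, 21 and 36 nuclei (37.5%, 37.5% and 52.2%), against 10.2%, 10.4% and 12.5%. A UMI of 16 arterial genes was present in 11, 21 and 50 nuclei (34.4%, 37.5% and 72.5%), against 10.5%, 10.7% and 25.6%. The arterial share of the doxorubicin plus ACY-1083 library rested on Arl15, a gene with a very long intron (chr13:113794505-114157461, plus strand) that had 0, 1 and 91 UMIs: without it the shares were 34.4%, 35.7% and 43.5%. When each nucleus was thinned to 500 UMIs, 8, 12 and 32 nuclei held an arterial UMI, and 8, 12 and 18 without Arl15. The classic arterial genes were sparse: Gkn3 had 6, 7 and 3 UMIs, Bmx 2, 1 and 12, Edn1 4, 12 and 9, and Gja5 none. Of the venous genes Vwf, a clotting protein, had 14, 10 and 28 UMIs, and the transcription factor Nr2f2 6, 4 and 7. As summed levels, capillary genes had a doxorubicin to control ratio of 0.796 (0.650 to 0.975), against 0.978 in other nuclei, and venous genes 0.672 (0.411 to 1.11). Venous genes had a relative ratio of 2.06 (1.42 to 3.06) for doxorubicin plus ACY-1083 against doxorubicin and 1.55 without the division by other nuclei. In that library 1 nucleus held 35 of the 115 venous UMIs, and without it the level was 768 CPM in place of 1078, with a relative ratio of 1.47. Arterial genes had a relative ratio of 0.388 (0.280 to 0.546) to doxorubicin and 1.84 without the division, and without Arl15 these were 1.09 (0.750 to 1.59) and 0.891. Arterial and venous UMIs, with Arl15 included, occurred together in 4, 7 and 27 nuclei, and in 2, 0 and 13 after thinning to 500 UMIs. At full depth 2, 1 and 0 nuclei had none of the 3 kinds. Single nuclei were not assigned to a zone.

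**Figure D5:**
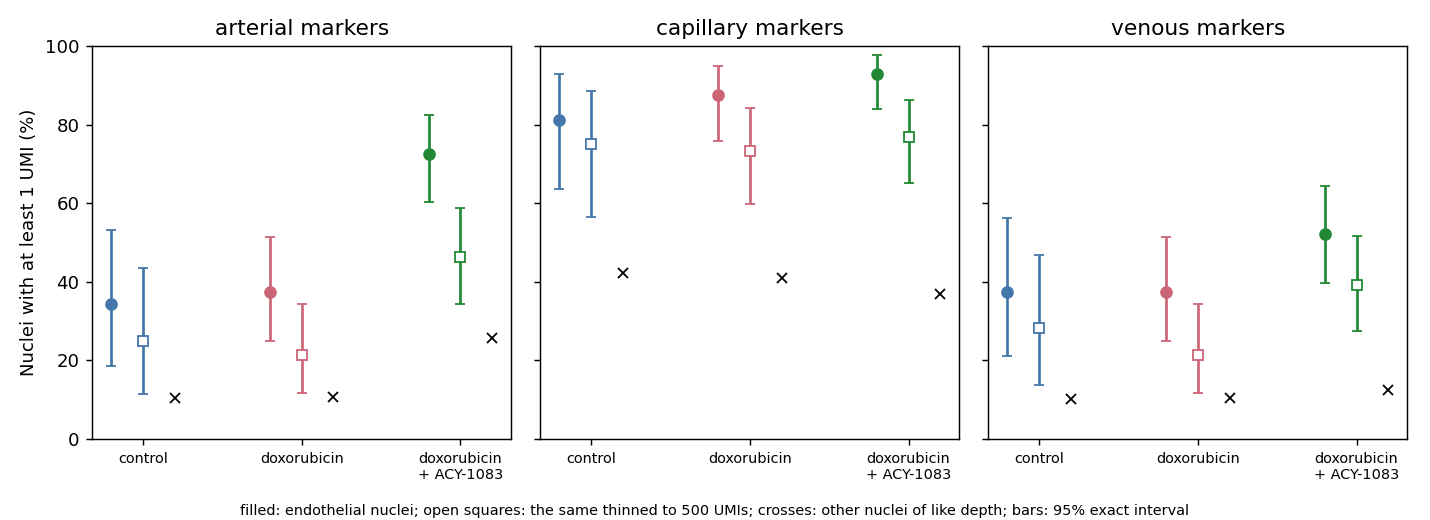
Percent of endothelial nuclei with at least 1 UMI of arterial, capillary or venous markers, with 95% binomial intervals. Filled points use all UMIs, open squares nuclei thinned to 500 UMIs, and crosses other nuclei of like depth; capillary markers are the most frequent in each library, from 81.25% to 92.8%, and the arterial share is 72.5% in doxorubicin plus ACY-1083 with Arl15 and 43.5% without it.

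Markers of other cells were detected in the endothelial nuclei, and the source of this RNA was not tested. Ttr, the transthyretin of choroid plexus epithelium, was in 26 of 32, 56 of 56 and 67 of 69 endothelial nuclei at 2797, 6644 and 3591 CPM, and in 85.2%, 97.6% and 95.4% of other nuclei of like depth at 2441, 5331 and 3262 CPM. Both groups thus held the gene at like shares, and 6 of 9 choroid markers were at 0 in the control endothelial nuclei. Choroid UMIs were uneven across nuclei. In doxorubicin, the nuclei without a UMI of the 20 identity genes held 3, 3, 19, 25, 20 and 49 choroid UMIs. In doxorubicin plus ACY-1083, such nuclei held 8, 41, 5 and 7 choroid UMIs and 2, 5, 73 and 95 neuron UMIs. Nuclei with identity UMIs also reached 46 and 75 choroid UMIs in these libraries. The cell type of such nuclei was not tested. The 9 choroid markers had a doxorubicin to control ratio of 2.68 in endothelial and 2.13 in all other nuclei. The neuron markers were below other nuclei of like depth in control and doxorubicin (11748 and 10495 CPM) and above them in doxorubicin plus ACY-1083, 6254 against 4624 CPM. In that library 7 nuclei over 3 times the median depth held 373 of the 667 neuron UMIs, and without them the level was 4160 CPM, below the other nuclei. The pericyte marker Rgs5 had 30, 41 and 31 UMIs in endothelial nuclei, at levels not below those of pericyte-like nuclei. The exclusion genes Pdgfrb, Atp13a5 and Abcc9 had at most 4 UMIs each. The rule itself limits them to 1 UMI together per nucleus, so nothing is read from their low counts. Oligodendrocyte markers summed to 2232, 1083 and 891 CPM, a doxorubicin to control ratio of 0.485 (0.338 to 0.695). Microglia, fibroblast, precursor, ependymal, lymphatic and blood markers each summed to at most 312 CPM.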

How the data were processed

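Per the labels' protocols, nuclei from pooled hippocampi were processed with 10x 3' v3 chemistry into 3 libraries. The deposited values are UMI counts for 32285 genes, made by the authors with Cell Ranger. The submitters' processing notes name version 6.0.0 and mm10, while the deposited matrix headers name 4.0.0 for control and doxorubicin and 5.0.0 for doxorubicin plus ACY-1083. The sources used here do not say whether counting used intronic reads or strand. The libraries held 10909, 12221 and 12192 barcodes.

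From these counts, endothelial nuclei were found by the rule, their UMIs were summed per library and gene, and CPM were computed (Python 3.11.15, numpy 2.4.6, scipy 1.17.1, pandas 2.3.3, scanpy 1.11.5, matplotlib 3.10.9). The members and gene lists were chosen with earlier results of these data known. With 1 library per group there is no test. Ratios carry 95% exact intervals conditional on the summed count, log2 values have 0.5 counts added, and a gene was compared if it had at least 20 UMIs in the higher library, with a ratio of at least 2 or at most 0.5 counted as past 2-fold. Ratios of the doxorubicin plus ACY-1083 library were divided by the ratio in all other nuclei, for genes with at least 100 UMIs there in both libraries. The interval bounds of these relative ratios were divided by the same value. They leave out its own counting error and are therefore too narrow. Other nuclei of like depth had no rule gene and UMIs within the quartiles of the endothelial nuclei. Pericyte-like and fibroblast-like nuclei had at least 3 genes of their lists and no more than 1 UMI of Flt1, Cldn5 and Pecam1.

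Named are the 9 rule genes, 25 identity genes with at least 20 UMIs in each library, the 10 highest and 10 lowest genes for doxorubicin against control and the 8 highest and 8 lowest for each other comparison, ordered by the interval bound nearest 1. These had at least 10 nuclei in the higher library, no nucleus with over 0.25 of the UMIs, a level at least that of other nuclei, and were not mitochondrial, hemoglobin, sex-linked, predicted or markers of other cells. The rule and exclusion genes were left out of each gene list before it was summed or counted. Each gene list gives its most abundant and most extreme members, and Hdac6 is always given. Single genes beyond this rule (Mt2, Cdkn1a, Esam, Icam1 and others with few UMIs) were picked after their values were seen. A few genes that meet the rule are not reported here. Coordinates are GENCODE vM21 on GRCm38, in which 32158 genes (99.6%) matched.

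The Scrublet doublet caller did not separate doublets by its automatic threshold, so no nucleus was removed and the highest 5% of scores were left out as an alternative. Clusters used 2000 variable genes, 30 components, 15 neighbours and Leiden resolution 1 on values normalized to 10000. The scripts were tested on simulated data.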

Additional observations from a re-analysis of the deposited data

How the results depend on the processing

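With 1 library per group, no value has a replicate check, and the few UMIs behind each named gene limit the precision. In all, 173 of the 219 recomputed values of 24 leading results moved by less than their counting interval or 1.5 times, 45 moved further and 1 turned. No paired analysis was possible because each group is 1 library. Thinning to 500 UMIs, resolution 3, the like-depth background, an equal CPM minimum, leaving out nuclei with over 2% of other cells' markers, the undivided ratio and leaving out the nucleus with most UMIs of a list were chosen after seeing the data. The cause of each shift below was not tested unless stated.

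Leaving out the nucleus of either library with most UMIs of a list kept the recomputed list ratios within their intervals, except that of neuron markers (1.38 in place of 2.0 for doxorubicin against control). Shares of nuclei were 0.151%, 0.203% and 0.333% (control, doxorubicin, doxorubicin plus ACY-1083) after thinning to 1000 UMIs, which left out shallower nuclei. They were 0.183% and 0.311% (control and doxorubicin) in the main cluster at resolution 3. In doxorubicin the share was 0.311% with at least 4 rule genes and 0.344% in the main cluster. With genes of at most 2000 intronic bases, 4, 4 and 4 identity genes were at least 2-fold above other nuclei, since fewer were tested.

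For doxorubicin against control, 25% of genes were 2-fold higher after thinning to 1000 UMIs, 18.4% with at least 10 UMIs and 4.29% with short introns. The percent lower was 9.09 after thinning, 2.65 in the main cluster, 2.61 without nuclei over 3 times the median UMIs, 2.30 with median-ratio scaling, 1.60 as a mean of nucleus CPM, 8.03 and 2.44 with at least 10 and 50 UMIs, and 7.30 with an equal CPM minimum, which turned the median log2 ratio to -0.051. Thinning turned Slc25a4 to -0.22 and Itm2a to 0.49 in log2. Short-intron genes turned the summed ratios of identity genes and of growth factor receptors to 1.0. Transporters were at 0.885 with at least 4 rule genes, 0.891 in the main cluster and 0.584 with short introns.

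For doxorubicin plus ACY-1083 against doxorubicin, the percent higher was 36.1 with median-ratio scaling, 7.89 with short introns and 51.5 undivided. The percent lower was 9.55 after thinning to 1000 UMIs, 1.96 with median-ratio scaling, 7.91 as a mean of nucleus CPM, 2.69 with at least 50 UMIs, 2.63 with short introns and 12.3 undivided. Against control, the percent higher was 14.7 with short introns and 61.4 undivided, and the percent lower 3.06 with median-ratio scaling and 3.05 with at least 50 UMIs. Activation genes turned to 1.06 and 1.74 against doxorubicin and control with short introns, and Cpe to 0.87 in log2 against control after thinning.

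Among nuclei found by the rule after thinning to 1000 UMIs, capillary markers were in 100% in control and venous markers in 22.2% in doxorubicin, against 91.7% and 25% when nuclei found at full depth were thinned to 1000. In doxorubicin, arterial, capillary and venous markers were in 21.4%, 73.2% and 21.4% when the nuclei found at full depth were thinned to 500 UMIs. In doxorubicin plus ACY-1083 they were in 46.4%, 76.8% and 39.1% at 500.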
